A study of Arabidopsis thaliana with 2 samples.

Results

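Tau class glutathione S-transferases (GSTs, gene names GSTU) are a plant enzyme family, and 7 of its genes were followed here in root pericycle cells with and without iron: GSTU18, GSTU20, GSTU22, GSTU23, GSTU25, GSTU26 and GSTU27. The 7 were chosen by gene name, with earlier results of these arrays known, from the 11 tau genes that have a probe set assigned to a single gene, among 13356 such genes in all. Cells came from 7-day-old Arabidopsis thaliana seedling roots of ecotype Columbia carrying the GFP reporter J2661, which marks the pericycle, the layer around the vascular tissue where lateral roots begin. Seedlings were grown on standard medium for 6 days and then moved for 24 h to iron-containing medium (+Fe) or to medium in which 0.3 mM ferrozine, an iron chelator, took the place of the iron salt (-Fe). Roots of both groups were protoplasted and the fluorescent cells sorted, so the 2 groups share line, age, protoplasting and sorting. The labels' protocols speak of 3 biological replicates per line, but each condition gave 1 column of intensities here, labelled replicate 1, and no source used here says if such a column holds 1 hybridisation or combines the replicates. The columns are called arrays below on the assumption of 1 hybridisation each. With 1 column per condition no difference could be checked against replicates, no p-value was computed, and "higher" and "lower" refer to these 2 columns alone.

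GSTs join the tripeptide glutathione to reactive or toxic small molecules, and the conjugates are then moved into the vacuole by ABCC transporters. Tau enzymes work as dimers with a serine in the catalytic site, are best known for detoxifying herbicides and other foreign compounds, and also bind or modify the cell's own metabolites. Their genes lie largely in tandem arrays, in which neighbouring copies arose by duplication and then diverged. In a reference annotation (TAIR10.1, used only for names and gene order), 28 tau loci were found, 18 of them on chromosome 1. Of these, 17 loci were not analysed here, among them ERD9 (also called GSTU17), GSTU19, GSTU24 and the whole array GSTU1 to GSTU7 on chromosome 2.

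Without iron, GSTU18 and GSTU25 read 1.89-fold and 1.73-fold higher, 2 of the 7 genes at 1.5-fold or more, and none of the 7 was 1.5-fold lower. At that size 12.6% of all plant probe sets were higher, and 24.1% of those past an expression filter, where 0.295% were lower. The 7 genes were picked with these values known, so nothing is read from their count of 2. The filter asks that the higher of both readings reach the median of all plant values, 0.858 arbitrary units, and all 7 genes were above it on both arrays. The 7 picked genes are exactly the tau genes with a single-gene probe set that passed it, so their passing is no finding. Differences depended on brightness across the whole array: the median log2 difference ran from -0.44 in the dimmest of 20 brightness bins to 0.63 in the second brightest. Each gene is therefore described by 2 values, the raw log2 difference (without minus with iron) and the detrended one, from which a smooth curve (lowess) of difference on mean log2 intensity was subtracted. After detrending, GSTU26 and GSTU27 were 1.52-fold and 1.53-fold lower without iron, GSTU18 was 1.38-fold higher, and none of the 7 was 1.5-fold higher. Among the plant probe sets past the filter, 1.48% were at least 1.5-fold lower after detrending and 1.09% at least 1.5-fold higher.

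**Figure D1:**
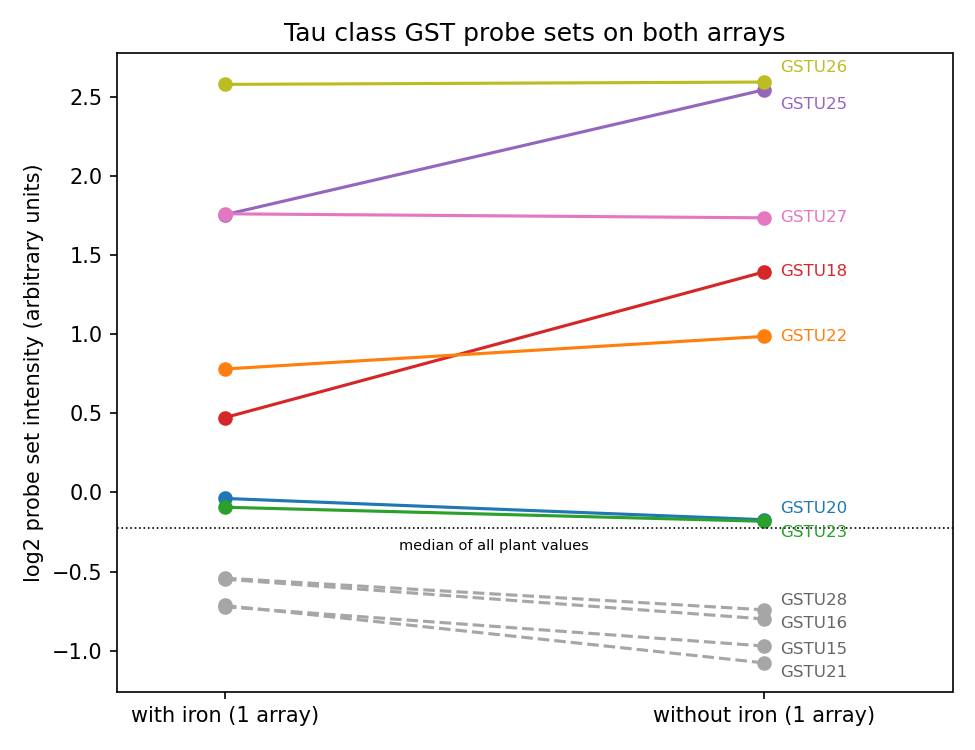
Log2 intensity (arbitrary units, y axis) of the 11 tau class probe sets on the array with iron and the array without iron, 1 point per array joined by a line; the dotted line is the median of all plant values. The lines of GSTU18 and GSTU25 slope up, those of GSTU26 and GSTU27 are nearly flat, and the 4 genes drawn in grey lie under the median on both arrays. Heights of different probe sets are not a measure of relative transcript amounts.

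GSTU18 (AT1G10360) lies next to ERD9, a tau gene known from drought responses, in an array of 2. Its probe set read 1.39 with iron and 2.63 without. The raw log2 difference was 0.92 and the detrended one 0.46. Detrended values of 500 probe sets of like brightness had a robust SD of 0.19, which measures how genes scatter around the trend and says nothing of replicate error. Of the 499 others in that set, 7 had a larger raw difference than GSTU18 and 492 a smaller one. In the authors' deposited table its q-value was 0.00245. The nearest measured genes on either side were nearer to the trend: AT1G10350 had a raw difference of 0.42 and a detrended one of 0.02, and AT1G10380 had 0.67 and 0.18.

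GSTU24, GSTU25 and GSTU26 stand side by side in 1 array on chromosome 1, and the 2 measured here differed from each other. GSTU25 (AT1G17180), an enzyme known to conjugate the explosive TNT, read 3.37 with iron and 5.83 without. Its raw log2 difference of 0.79 left 0.18 after detrending, with a local robust SD of 0.24, and 125 of 499 probe sets of like brightness had a larger raw difference. GSTU25 was thus higher without iron by about as much as other bright probe sets, and its q-value in the authors' deposited table was 0.150.

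GSTU26 (AT1G17190), the adjacent gene and one known to respond to herbicides, read 5.97 with iron and 6.03 without. The readings were nearly equal (raw log2 difference 0.01), while probe sets of like brightness had a median raw difference of 0.65. After detrending GSTU26 was at -0.61, with a local robust SD of 0.24. Of the 499 probe sets of like brightness 488 had a larger raw difference than GSTU26 and 11 a smaller one. The authors' deposited table, whose q-values were not computed for detrended values, gave it 0.271.

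The raw log2 difference of GSTU25 exceeded that of GSTU26 by 0.77, and the detrended one by 0.78. This gap was 0.77 to 0.84 under the 5 rescalings of the arrays that were run, 0.63 with a pseudocount of 1 and 0.17 with a pseudocount of 16. Setting the median difference to 0 subtracts a constant and cannot change the gap. The other rescalings shift genes of similar brightness by similar amounts, so the 5 are not independent checks of it. For scale, 1649 pairs of adjacent genes with both probe sets past the filter had a median gap of 0.28 in raw difference, and 16% of these pairs had a gap of at least 1.5-fold. Probe sets of the same gene scattered by a pooled SD of 0.33 in raw log2 difference, over the 15 genes that had several past the filter. Whether either probe set also binds transcripts of GSTU24 or of the other neighbour was not tested.

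GSTU27 (AT3G43800) stands alone in gene order on chromosome 3. Its probe set read 3.39 with iron and 3.33 without, a raw log2 difference of -0.03, and was at -0.61 after detrending (local robust SD 0.22). Compared with it, 489 of 499 probe sets of like brightness had a larger raw difference and 10 a smaller one. Its q-value in the authors' deposited table was 0.284. GSTU26 and GSTU27 thus showed one pattern, a reading that was level between the arrays while most probe sets of their brightness were higher without iron. The next measured genes around GSTU27 were dim: AT3G43750 read 0.558 and 0.435 and was at 0.06 after detrending, and AT3G43840 read 0.639 and 0.581 and was at 0.13.

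**Figure D2:**
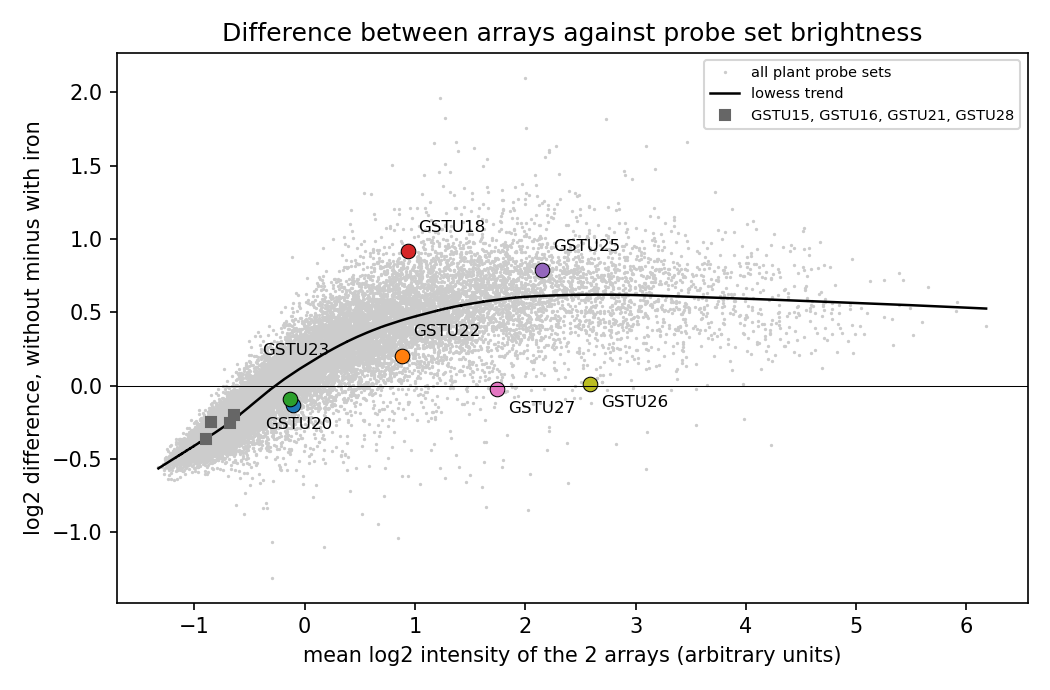
Raw log2 difference (without minus with iron, y axis) against the mean log2 intensity of both arrays (arbitrary units, x axis) for 22746 plant probe sets (grey), with the lowess trend (black line), the 7 tau genes (coloured) and the 4 dim tau genes (squares). GSTU18 and GSTU25 lie above the trend, the other 5 coloured points lie under it, and GSTU26 and GSTU27 are the farthest from it.

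GSTU19 to GSTU23 form the largest tau array on chromosome 1, with 5 loci in a row, and 3 of the 7 genes belong to it. GSTU22 (AT1G78340) read 1.72 with iron and 1.98 without, a raw log2 difference of 0.21 that became -0.24 after detrending (local robust SD 0.21). The direction of GSTU22 therefore depended on the scaling: it was higher without iron in the deposited values and lower after each of 5 rescalings of the arrays. Its q-value in the authors' deposited table was 0.248.

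GSTU20 (AT1G78370), also known as FIP1 for its binding to the jasmonate-conjugating enzyme JAR1, read 0.974 with iron and 0.888 without. Its raw log2 difference was -0.13 and the detrended one -0.22 (local robust SD 0.14), with a q-value of 0.180 in the authors' deposited table. GSTU23 (AT1G78320) read 0.937 and 0.881, at -0.09 raw and -0.16 detrended (local robust SD 0.16). Both genes were only slightly above the filter value of 0.858 on the array without iron. GSTU23 had the smallest q-value of the 7 in the authors' deposited table, 0.000975, while its reading without iron was 0.940 of that with iron on these arrays.

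GSTU21 (AT1G78360), which lies between GSTU20 and GSTU22, read 0.610 and 0.474 and was at -0.003 after detrending. Outside the array, AT1G78280 had a raw log2 difference of 0.63 and a detrended one of 0.11, and AT1G78400 read 0.585 with iron and 0.438 without. After detrending, GSTU20, GSTU22 and GSTU23 were all slightly lower without iron, by 1.12-fold to 1.18-fold. None of the 3 reached 1.5-fold in any setting that was run.

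Over the 7 genes the raw log2 differences spanned -0.13 to 0.92 and the detrended ones -0.61 to 0.46. Their median was 0.01 raw, beside 0.37 over the 11872 plant probe sets past the filter, of which 89.9% were higher without iron. The detrended median was -0.22, beside 0.01, with 2 genes above 0 and 5 under it, where 51.2% of the probe sets past the filter were above 0. These medians describe genes that were picked with their values known.

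**Figure D3:**
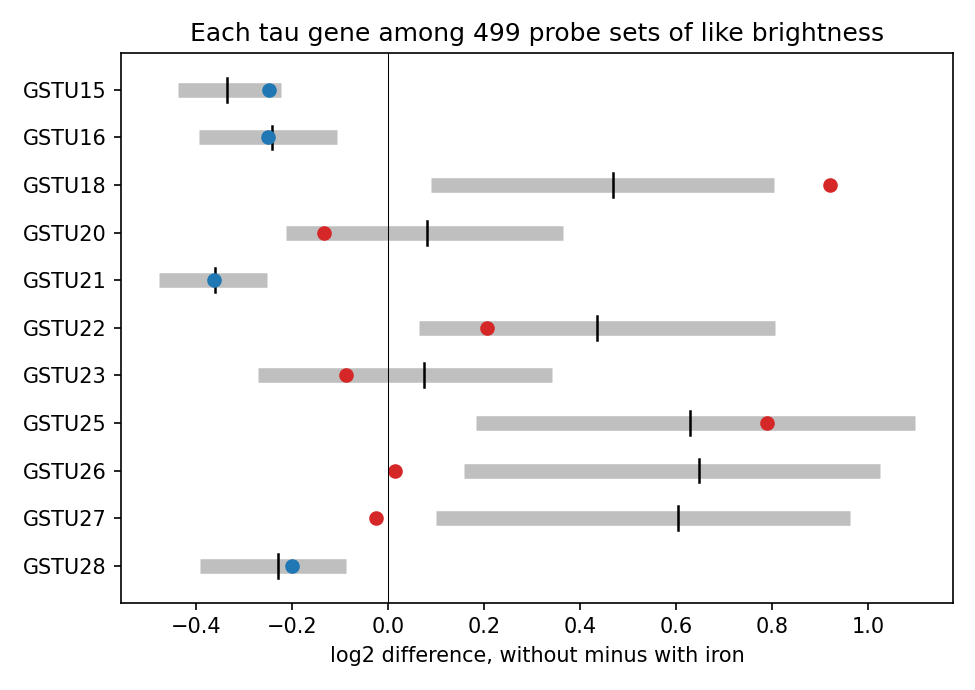
Raw log2 difference (without minus with iron, x axis) of each of the 11 tau genes (points, red for the 7 genes described and blue for the other 4) against the 499 other plant probe sets of like brightness. Grey bars span the 5th to 95th percentile of those probe sets and black ticks mark their median. GSTU18 lies beyond the upper end of its bar, GSTU26 and GSTU27 lie beyond the lower end, and the other points lie inside.

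By the authors' deposited table, q-values under 0.05 belonged to 2 of the 7 genes, GSTU18 and GSTU23, beside 44.5% of the plant probe sets past the filter and 61.3% of all plant probe sets. No source used here gives the test behind these q-values or the arrays that entered it. Of the 7, GSTU18 alone combined a raw difference of 1.5-fold with a q-value below that limit in the authors' deposited table. Of the plant probe sets past the filter, 24.1% were at least 1.5-fold higher and 44.5% had such a q-value, each counted alone. The share meeting both conditions was not counted, and the 7 were picked with their values known. Whether this combination sets GSTU18 apart from the rest of the array was therefore not tested.

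The 4 remaining tau genes with a single-gene probe set were below the filter on both arrays. GSTU28 (AT1G53680) came nearest to it, at 0.687 with iron and 0.598 without, while GSTU23 was the nearest above it. GSTU16 (AT1G59700) read 0.684 and 0.575, and GSTU15 (AT1G59670) read 0.606 and 0.511. All 4, GSTU21 included, read inside the range of the 27 Bacillus control probe sets, for transcripts that plants do not make, which was 0.531 to 0.727 with iron and 0.389 to 0.635 without. The 4 genes were at -0.36 to -0.20 raw and at -0.004 to 0.09 after detrending. The raw differences of the Bacillus controls were all negative, with a median of -0.42. Other control probe sets went the other way. All 9 hybridisation controls were higher without iron, with a median raw log2 difference of 0.36. Of the 19 remaining controls 18 were higher, with a median of 0.46.

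**Figure D4:**
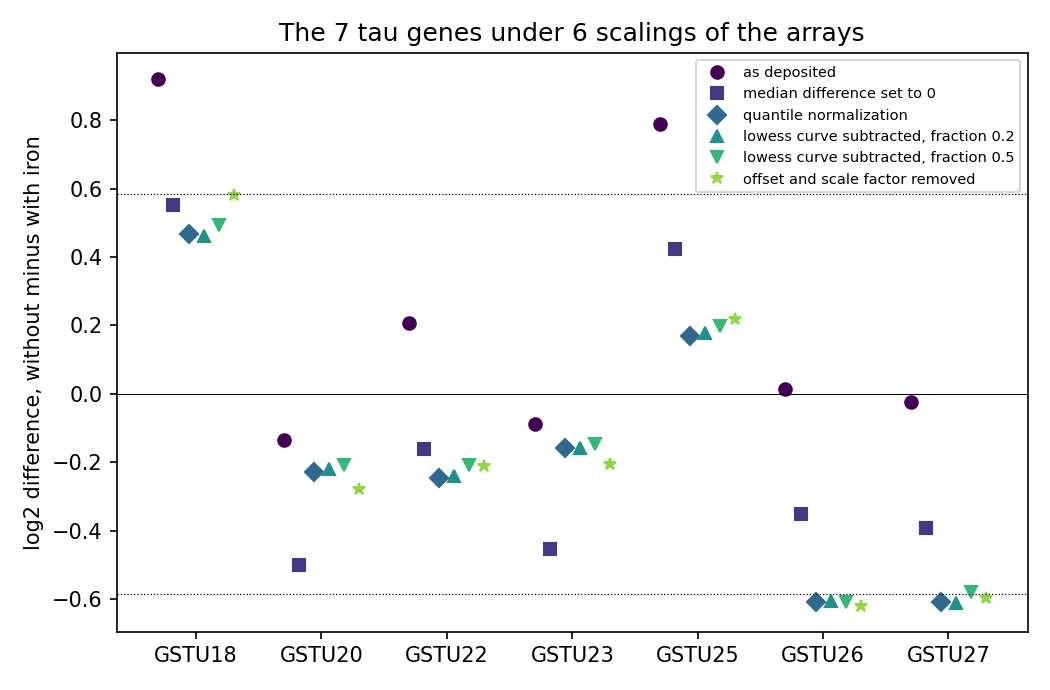
Log2 difference (without minus with iron, y axis) of the 7 tau genes (x axis) as deposited and under 5 rescalings of the arrays, 1 symbol per scaling; dotted lines mark 1.5-fold higher and lower. GSTU18 and GSTU25 are above 0 under all 6, GSTU20, GSTU23 and GSTU27 are under 0 in all 6, and GSTU22 and GSTU26 are above 0 only as deposited.

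Few of the genes around the tau enzymes in glutathione use had a single-gene probe set, which is what measured means in this text. Of 22746 plant probe sets 8730 had no gene assigned, so a gene not measured may still be on the array. Outside the tau class, 136 genes were listed for other GST classes, glutathione, sulfate assimilation, conjugate export and foreign compounds, TGA regulators and antioxidant enzymes, and 13 had a single-gene probe set, 10 of them past the filter. Of these 10, 9 were higher without iron, 5 of them by at least 1.5-fold, with a median raw log2 difference of 0.52. Over all plant probe sets past the filter 89.9% were higher and 24.1% at least 1.5-fold higher, with a median of 0.37. After detrending 6 of the 10 were higher and 4 lower, none by 1.5-fold, and the median was 0.06, beside 0.01 over the probe sets past the filter. None of the 15 listed TGA and SCL regulators, transcription regulators known to control tau genes in response to foreign compounds, had a single-gene probe set.

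Of 25 listed genes of other GST classes, 3 were measured and GSTL3 passed the filter. GSTL3, a lambda class enzyme that acts in thiol exchange and not in conjugation, read 1.37 with iron and 2.46 without, at 0.84 raw and 0.40 detrended (local robust SD 0.21). These differences were close to those of GSTU18. The phi class genes GSTF4 and ATGSTF13 were below the filter on both arrays, at 0.629 and 0.482 for GSTF4 and at 0.638 and 0.537 for ATGSTF13. Of the 28 genes of glutathione synthesis, recycling and breakdown, both measured ones encode glutathione reductases, which restore glutathione from its oxidised form. GR1, the form of the cytosol and peroxisomes, read 5.19 with iron and 8.49 without, at 0.71 raw and 0.09 detrended. GR, the organelle form also called GR2, read 2.05 and 2.78, at 0.44 raw and -0.08 detrended.

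Sulfate assimilation supplies the cysteine from which glutathione is made, and 3 of its 20 listed genes were measured. SIR, the sulfite reductase, itself an enzyme with siroheme and an iron-sulfur cluster, read 1.54 with iron and 2.62 without, at 0.77 raw and 0.30 detrended (local robust SD 0.20). The ATP sulfurylases APS4 and APS3 were at 0.78 and 0.60 raw and at 0.19 and 0.08 detrended. AER, an alkenal reductase that removes reactive carbonyls, was 1 of 2 measured genes of 22 listed for conjugate export and foreign compounds, and read 0.989 and 0.884 (-0.16 raw, -0.25 detrended). The other one, the glycosyltransferase gene UGT73B5, was below the filter. Among 26 listed antioxidant enzymes 3 were measured. ATMDAR2, a monodehydroascorbate reductase, was at 0.24 raw and -0.38 detrended, and the plastid ascorbate peroxidases SAPX and TAPX were at 0.42 and 0.10 raw and at -0.12 and 0.04 detrended.

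Probe sets with the pattern most like that of the 3 brightest tau genes were sought by distance in the plane of both log2 readings, over 2 arrays and single-gene probe sets only. Nearest to GSTU26 were AT2G27730, SAH7 and AT5G10830, at distances of 0.02, 0.05 and 0.14. For GSTU27 they were AT4G00585, ATRER1A and AT2G30620, at 0.02, 0.03 and 0.05. GSTU25 lay nearest to AT1G60610, the asparaginase gene ASPGA1 and AT3G52580, at 0.02, 0.02 and 0.03. In the authors' deposited table the genes nearest to GSTU26 and GSTU27 had q-values of 0.203 to 0.276, and those nearest to GSTU25 had q-values of 6.67e-05 to 0.0321, while GSTU25 itself had 0.150.

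In sorted cells, fewer cells of a type and less RNA per cell cannot be told apart. Of 11 pericycle and stele markers, 3 were measured: LBD16 and PUCHI, which act in lateral root formation, went from 1.60 to 2.26 and from 1.37 to 1.82 between the arrays with and without iron, which left 0.04 and 0.02 after detrending, and LBD29 was below the filter on both arrays (0.03 detrended). All 4 measured cortex markers of 5 listed were below the filter, with a summed reading of 2.80 with iron and 2.22 without, and were at -0.15 to -0.03 after detrending. The root hair markers EXPA7 and EXPA18, the 2 measured of 12, summed to 2.06 with iron and 1.62 without and were at -0.47 and -0.36 after detrending. Both passed the filter only through their reading with iron, so nothing is read from their direction. In the endodermis list 1 of 15 was measured, GSO1 (SGN3), which read 1.46 and 1.44 and was at -0.37 after detrending. OPS, the 1 measured of 10 phloem markers, read 0.768 and 0.866 (0.19 detrended), and passed the filter only through its reading without iron. LHW, the 1 measured of 12 xylem markers, read 3.82 and 5.66 (-0.05 detrended). AGL42, the 1 measured of 8 root cap and niche markers, was below the filter (0.01 detrended). No measured marker was listed at 0. Among the measured markers above the filter on both arrays, GSO1 and LHW were under 0 after detrending, and LBD16 and PUCHI were above 0. Nothing is read from the direction of OPS or of the markers below the filter. Of the 7 tau genes 5 were under 0, where 51.2% of the plant probe sets past the filter were above 0. The part of any cell type in the differences of the tau genes was not tested.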

How the data were processed

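Per the labels' protocols, RNA of sorted cells was amplified in successive rounds, labelled with biotin and hybridised to 1-colour Affymetrix arrays, a procedure that favours 3' ends and can widen differences between arrays. The authors deposited 1 intensity for each probe set and condition, on a linear scale. How they corrected background, normalized and scaled these is not stated in the labels or files used. Both columns have medians near 1 (0.852 with iron, 0.866 without). A deposited q-value for each probe set is quoted as the authors' own.

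Probe sets were named from the platform table, updated by gene ID through RefSeq's gene table: 13513 probe sets had 1 gene (13436 found by gene ID), 503 several and 8730 none. No pseudocount was added before log2. The lowess curve used a fraction of 0.2 over all plant probe sets (statsmodels 0.14.6). It was tested on simulated data with 200 changed probe sets among 22746, where the median error was 0.00499 (log2). That simulation altered few probe sets, so it cannot tell how well the curve performs where many differ. Its error is not a measure of precision for the detrended values given here. Tau loci up to 10 genes apart formed an array. The tau genes, lists and fold sizes were chosen with earlier results of these data known. Named genes were all tau genes measured, up to 6 members of each list past the filter, cell type markers, the 3 nearest in pattern to each of the 3 brightest tau genes, and neighbours in gene order. GSTF4, ATGSTF13 and UGT73B5, below the filter, were named in addition to account for the measured list members, after their values were seen. With 1 column per condition, the number of arrays limits the precision. Alternatives were quantile normalization, centring, lowess with fraction 0.5, removal of an offset and scale factor, pseudocounts of 1 and 16, other fold, q and filter thresholds, and the mean.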

Additional observations from a re-analysis of the deposited data

How the results depend on the processing

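The number of tau genes at least 1.5-fold higher without iron, 2 as deposited, was 0 after quantile normalization, with the median difference of the probe sets past the filter set to 0, after subtraction of the lowess curve with fraction 0.2 or 0.5, with an offset and scale factor removed, and with a pseudocount of 16, and 0 at 2-fold. A pseudocount of 16 exceeds all 7 readings on both arrays, which by itself shrinks every difference. The number at least 1.5-fold lower, 0 as deposited, was 2 after quantile normalization, lowess with fraction 0.2 and offset removal, and 1 with fraction 0.5. It stayed 0 with the median difference set to 0 and with a pseudocount of 1 or 16. The median log2 difference of the 7 genes, 0.01 as deposited, was -0.23, -0.35, -0.22, -0.21 and -0.21 after quantile normalization, centring, lowess (0.2), lowess (0.5) and offset removal, 0.0041 with a pseudocount of 16, and 0.24 as a mean. The 5 listed pathway genes at least 1.5-fold higher became 0 under each of these 5 rescalings and with a pseudocount of 16, and 2 with a pseudocount of 1 (the last alternatives for lower calls, pathway genes and the gap between GSTU25 and GSTU26 were chosen after seeing the data). The 2 q-values under 0.05 in the authors' deposited table were also the number under 0.01 and under 0.1. No paired analysis was possible because each condition has 1 column of values. For the same reason no replicate could be left out and no replicate error could be computed; whether a column summarises several of the 3 biological replicates in the labels' protocols is not stated.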
